A study of Mus musculus with 13 samples.

Results

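The 10 genes described here (*Trem2*, *Gpnmb*, *Spp1*, *Lgals3*, *Cd9*, *Mmp12*, *Tm4sf19*, *Itgax*, *Atp6v0d2* and *Dcstamp*) are commonly used to recognize lipid-associated macrophages in fat. They were taken from the raw counts by Ensembl identifier, 10 of 33618 genes in the table, and each identifier occurred once. All 10 passed the filter on low counts, which left 16753 genes to test. The counts came from bulk RNA-Seq of whole parametrial white adipose tissue (pmWAT) of female mice, with 1 library per mouse. The 7 *Lmna* fl/fl control mice carried loxP sites around exons 10 and 11 of both copies of *Lmna*, the lamin A/C gene, and no Cre. The 6 *Lmna* iADKO mice carried the same alleles and 1 copy of *Adipoq*-CreERT2, a tamoxifen-inducible recombinase driven by the adiponectin promoter, so the deletion was aimed at adipocytes and, by this design, not at macrophages. Mice of both genotypes received tamoxifen at 50 mg/kg on 5 consecutive days at 12 to 14 weeks of age, and pmWAT was taken 2 weeks posttamoxifen.

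Lipid-associated macrophages gather around dying or overfilled adipocytes, take up the lipid that these release and break it down in lysosomes. TREM2, a lipid-sensing surface receptor, signals through the adaptor TYROBP and is needed for much of this program in obese fat. Around dead adipocytes such cells form crown-like structures, where macrophages can also fuse into multinucleated giant cells with machinery they share with osteoclasts. None of the 10 genes belongs to these macrophages alone. *Lgals3* and *Cd9* are also transcribed by stromal and other immune cells, and *Itgax* (CD11c) by dendritic cells.

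The libraries held between 18854223 and 19776491 counts. Levels are given as CPM, counts scaled to a common library size, as mean ± SD over 7 fl/fl and 6 iADKO mice. *Lmna* itself was at 84.7 ± 7.51 CPM in the fl/fl libraries and at 96.7 ± 11.5 CPM in the others, and this log2 difference of 0.19 did not pass (adjusted p = 0.0785, edgeR). These are whole-gene counts of whole tissue in which exons 10 and 11 cannot be counted apart, so they do not show the deletion, and every direction given here rests on the genotype labels. The tissue label was checked with 6 adipocyte markers, whose summed level was 6126 to 10998 CPM in fl/fl and 3911 to 6355 CPM in iADKO. In the member genes 3 libraries stood apart from the others of their genotype. Replicate 5 was the highest fl/fl library for 9 of the 10 genes, replicate 7 was the highest for *Spp1*, and iADKO replicate 6 was the lowest iADKO library for 8 of the 10. The fl/fl replicate 5 also had the highest sum of skeletal muscle markers of any library (338 CPM) and the lowest fl/fl sum of adipocyte markers (6126 CPM). The iADKO replicate 6 had the highest sum of epithelial markers (149 CPM) and the highest iADKO sum of adipocyte markers (6355 CPM). The part of these contents in the results was not tested, and results on the members and gene lists that rest on a single library are given with and without it.

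The sequences before the transcription starts of *Trem2*, *Gpnmb*, *Itgax* and *Tm4sf19* are shown. The first 3 hold a match to the same short pattern, TGANTCA. *Tm4sf19*, the gene with the largest change, holds none of the motifs searched. Each runs from 250 bases before the RefSeq start site to 30 bases after it, 5′ to 3′ on the + strand, and was matched base for base to GRCm39. Capitals mark TGANTCA, where N is any base, and the core GAGGAAG or its reverse complement, one of the kind bound by PU.1. TGANTCA takes in TGAGTCA and TGACTCA, the core bound by AP-1 factors. The match in *Trem2*, TGAATCA, is not of these forms.
Trem2 (chr17:48653179-48653458): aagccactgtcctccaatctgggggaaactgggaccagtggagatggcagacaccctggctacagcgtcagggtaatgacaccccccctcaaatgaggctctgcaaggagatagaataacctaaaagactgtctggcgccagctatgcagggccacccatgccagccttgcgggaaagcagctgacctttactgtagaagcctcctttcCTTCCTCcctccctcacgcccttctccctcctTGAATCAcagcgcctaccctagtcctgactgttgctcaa
Gpnmb (chr6:49013202-49013481): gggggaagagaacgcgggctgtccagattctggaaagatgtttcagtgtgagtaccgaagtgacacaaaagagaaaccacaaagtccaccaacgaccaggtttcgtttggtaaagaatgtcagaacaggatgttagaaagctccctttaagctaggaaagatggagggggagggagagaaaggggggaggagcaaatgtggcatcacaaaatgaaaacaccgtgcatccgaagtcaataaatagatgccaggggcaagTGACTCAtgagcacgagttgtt
Itgax (chr7:127728472-127728751): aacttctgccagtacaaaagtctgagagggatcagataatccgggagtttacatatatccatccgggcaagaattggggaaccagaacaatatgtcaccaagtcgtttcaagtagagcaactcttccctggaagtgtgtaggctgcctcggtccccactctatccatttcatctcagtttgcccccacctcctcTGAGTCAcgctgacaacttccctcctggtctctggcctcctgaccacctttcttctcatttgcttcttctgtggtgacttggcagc
Tm4sf19 (chr16:32219074-32219353): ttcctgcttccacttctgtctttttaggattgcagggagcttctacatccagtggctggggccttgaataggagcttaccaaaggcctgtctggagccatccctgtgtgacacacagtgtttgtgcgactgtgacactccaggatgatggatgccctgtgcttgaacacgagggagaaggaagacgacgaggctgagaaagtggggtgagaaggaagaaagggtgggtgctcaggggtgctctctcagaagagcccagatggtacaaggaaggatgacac
RefSeq windows (GRCm38.p6 table) were matched for 8 of the 10 genes, in 10 windows that reached from 250 bases before to 50 bases after the start. Both strands were read for each motif except TATAAA, which was read on the gene's own strand. TGANTCA began 9 bases before the start in *Trem2* and 56 bases before it in *Itgax*. In *Gpnmb* it began at base 9, with the start site counted as the first base. TGANTCA was also in a window of *Mmp12* that belongs to a start farther downstream. It was in 7.81% of all 32851 windows of the same length. GAGGAAG was in the windows of *Trem2*, *Spp1* and *Mmp12*, and in 13.6% of all windows. The E-box CACGTG, the core bound by MITF and TFEB, was in none of the 10 windows and in 7.15% of all. TATAAA was in a window of *Spp1* and one of *Mmp12*, and in 8.32% of all. *Atp6v0d2* and *Dcstamp* are named only. No binding was measured, so a match is a run of letters and nothing more.

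Of the 10 genes, 8 passed edgeR's quasi-likelihood test at an adjusted p under 0.05 with higher levels in iADKO, and none was lower. Over all genes tested, 14.1% were higher by the same rule, and 2737 of the 16753 genes were lower. The median log2 fold change of the 10 genes was 1.07, with a range of 0.35 (*Spp1*) to 2.38 (*Tm4sf19*), against a median of 0.03 over all 16753 genes. *Trem2* and *Spp1* did not pass the test. In 2 of the 10 genes, *Lgals3* and *Tm4sf19*, all 6 iADKO libraries lay above all 7 fl/fl libraries, as they did in 2.71% of all genes tested. In each of the 10 genes all 6 iADKO libraries lay above the fl/fl median. This rule is looser, and the share of all genes that meet it was not computed. CPM are shares of a library. In bulk tissue a larger number of such macrophages, less RNA from other cells and more of these RNAs per cell cannot be told apart.

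**Figure D1:**
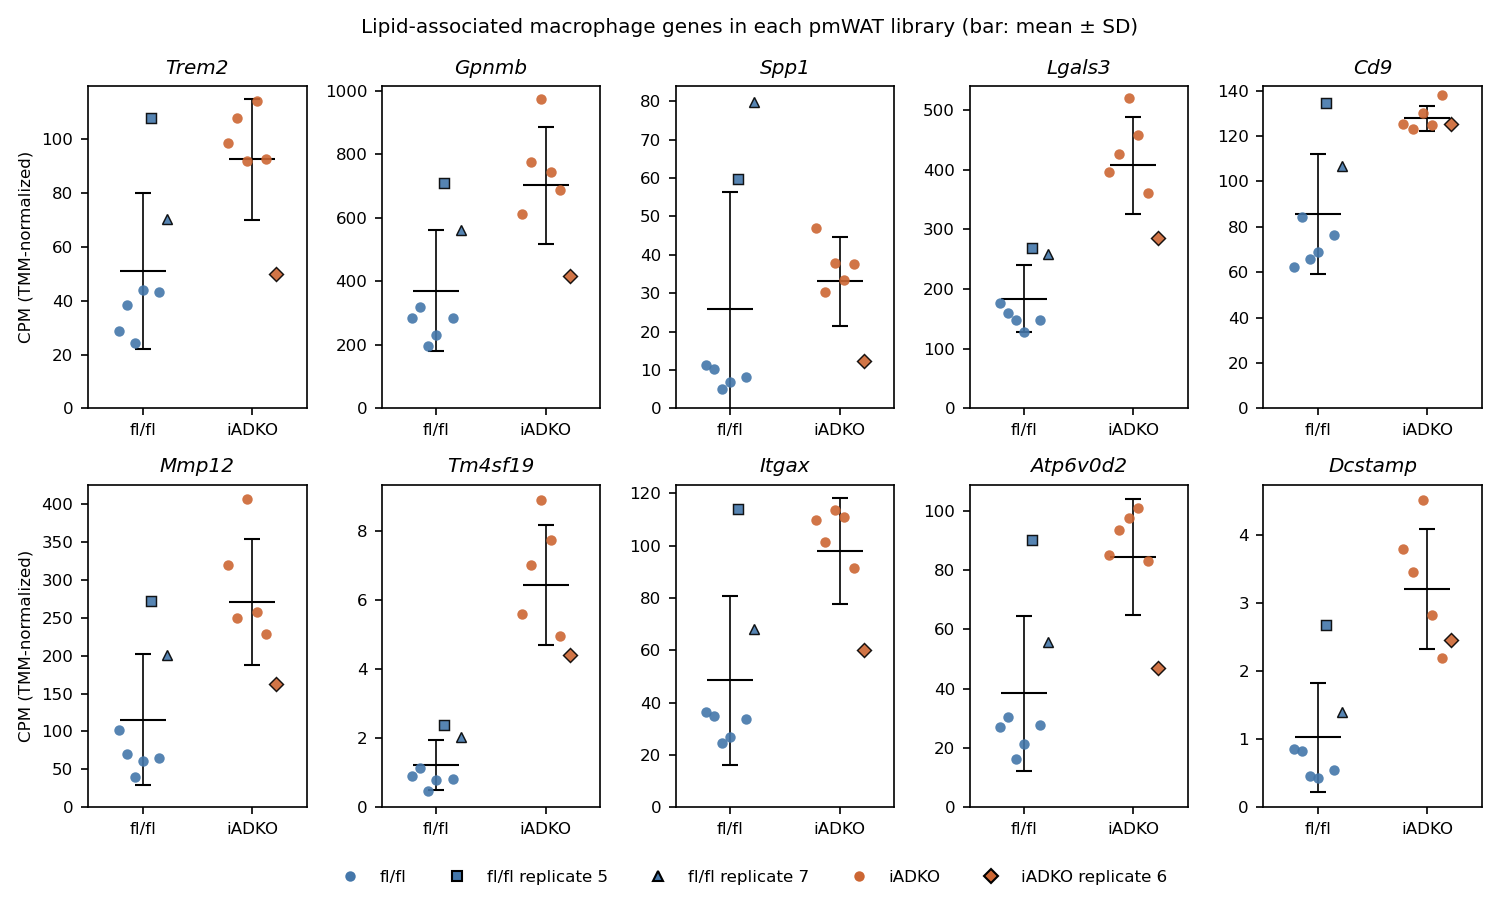
TMM-normalized CPM (linear axis from 0) of each gene in 7 fl/fl and 6 iADKO libraries, with the mean and SD of each genotype as bars. The SD of *Spp1* in fl/fl is larger than its mean, so that its lower bar meets the axis. Squares and triangles mark fl/fl replicates 5 and 7 and diamonds iADKO replicate 6, and only *Lgals3* and *Tm4sf19* show no overlap of the genotypes.

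*Trem2* (ENSMUSG00000023992; GRCm39 chr17:48653429-48661175, + strand, 5 exons in the canonical transcript) encodes the receptor after which the program is often named. Its level was 24.3 to 108 CPM in fl/fl (median 43.2) and 49.8 to 114 CPM in iADKO (median 95.6). The genotypes overlapped, with fl/fl replicate 5 (108 CPM) among the 5 highest iADKO libraries and iADKO replicate 6 (49.8 CPM) below fl/fl replicate 7 (70.2 CPM). On average *Trem2* had 51.0 ± 29.1 CPM in fl/fl (SD, n = 7) against 92.5 ± 22.6 CPM (SD, n = 6). The log2 fold change was 0.86 with a standard error of 0.33 and did not pass (adjusted p = 0.0631, edgeR), while the exact two-sided permutation test on this gene alone gave p = 0.0186. Without fl/fl replicate 5 the log2 fold change of *Trem2* was 1.16 (adjusted p = 0.00459, edgeR), and without iADKO replicate 6 it was 0.98 (adjusted p = 0.0375, edgeR). In the other 11 fits that left out 1 mouse it did not pass.

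The signaling partners of TREM2 were described with a list of 12 genes, of which 7 were higher and none lower, with a median log2 fold change of 0.46. *Tyrobp*, the adaptor (DAP12) that carries the TREM2 signal, rose from 77.8 ± 36.1 CPM to 148 ± 24.9 CPM (log2 fold change 0.93, adjusted p = 0.0162, edgeR). *Ms4a7*, a membrane protein gene of macrophages, rose by a log2 fold change of 0.84 (adjusted p = 0.0168, edgeR). *Syk*, the kinase recruited by TYROBP, rose by 0.75 (adjusted p = 0.0268, edgeR). The genes of the lipoprotein ligands *Apoe* and *Clu* had the most counts of the list and did not pass. *Apoe*, which adipocytes also transcribe, was 3136 ± 1020 CPM in fl/fl and 4285 ± 649 CPM in iADKO (adjusted p = 0.0812, edgeR), and *Clu* was 199 ± 63.4 and 246 ± 51.2 CPM (adjusted p = 0.25, edgeR). With the animal-number series as a block (described with the member results by series) 1 of the 12 genes passed, with *Tyrobp* at an adjusted p of 0.0574, *Ms4a7* at 0.0853 and *Syk* at 0.124 (edgeR). All 12 passed without fl/fl replicate 5, and 5 to 7 did when any other mouse was left out.

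*Gpnmb* (ENSMUSG00000029816; chr6:49013426-49047863, + strand, 11 exons) encodes a lysosomal and surface glycoprotein of lipid-laden macrophages. It ranged from 198 to 710 CPM in fl/fl (median 285) and from 418 to 975 CPM in iADKO (median 716). The groups overlapped through fl/fl replicates 5 and 7, while 3 iADKO libraries lay above every fl/fl library. The means were 370 ± 190 and 702 ± 185 CPM (log2 fold change 0.92, standard error 0.30, adjusted p = 0.0323, edgeR). The call held in 4 of the 13 fits that left out 1 mouse.

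*Lgals3* (ENSMUSG00000050335; chr14:47605208-47623624, + strand, 6 exons) encodes galectin-3, a sugar-binding protein that is recruited to damaged lysosomes. Its levels were 129 to 268 CPM in fl/fl (median 160) and 285 to 520 CPM in iADKO (median 411), without overlap. The lowest iADKO library, replicate 6 at 285 CPM, was just above the highest fl/fl library, replicate 5 at 268 CPM. *Lgals3* was 2.22-fold higher in iADKO (log2 fold change 1.15, standard error 0.19, adjusted p = 0.000941, edgeR). The exact permutation p was 0.00117, the smallest that 7 against 6 libraries can give. *Lgals3* passed in all 13 fits that left out 1 mouse, with log2 fold changes of 1.07 to 1.27.

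*Cd9* (ENSMUSG00000030342; chr6:125437210-125471778, - strand, 8 exons) encodes a tetraspanin, a membrane organizer that is found on lipid-associated macrophages and on many other cells. It was 62.2 to 135 CPM in fl/fl (median 76.6) and 123 to 138 CPM in iADKO (median 125). The 6 iADKO libraries were close together, with a coefficient of variation of 4.33% against 30.7% in fl/fl, and only fl/fl replicate 5 reached their range. *Cd9* had the smallest change of the genes that passed (log2 fold change 0.58, standard error 0.16, adjusted p = 0.0142, edgeR). It passed in all 13 fits that left out 1 mouse.

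*Spp1* (ENSMUSG00000029304; chr5:104582165-104589235, + strand, 7 exons) encodes osteopontin, a secreted ligand of integrins and CD44. Most fl/fl libraries were low, with a lowest value of 5.14 and a median of 10.4 CPM, whereas replicates 5 and 7 had 59.7 and 79.7 CPM. The iADKO libraries ranged from 12.4 to 47.0 CPM (median 35.5), and none was above these 2 fl/fl libraries. The means were 25.9 ± 30.6 and 33.1 ± 11.6 CPM, and the log2 fold change was 0.35 with a standard error of 0.66 (adjusted p = 0.712, edgeR). Without fl/fl replicate 7 the log2 fold change of *Spp1* was 0.96 (adjusted p = 0.232, edgeR), without fl/fl replicate 5 it was 0.71 (adjusted p = 0.428, edgeR), and without iADKO replicate 6 it was 0.52 (adjusted p = 0.593, edgeR). *Spp1* passed in none of the 13 fits that left out 1 mouse.

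Of 7 osteopontin receptor genes, 3 were higher and none lower, with a median log2 fold change of 0.26. *Cd44*, the hyaluronan receptor that also binds osteopontin, rose from 59.7 ± 26.1 to 100 ± 12.4 CPM (log2 fold change 0.75, adjusted p = 0.0275, edgeR). The integrin subunits *Itga4* and *Itga9* rose by log2 fold changes of 0.56 and 0.36 (adjusted p = 0.0299 and 0.00581, edgeR). *Itgb1*, the broadly expressed beta 1 subunit, had the most counts of the list and differed by 0.02 on the log2 scale (adjusted p = 0.769, edgeR). None of the 7 passed with the series as a block, where *Cd44* had an adjusted p of 0.0814 (edgeR). Without fl/fl replicate 1, 2, 3 or 6 or iADKO replicate 2 or 4 only 1 of the 7 passed, and without any other mouse 2 to 4 did.

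*Mmp12* (ENSMUSG00000049723; chr9:7344381-7369499, + strand, 10 exons) encodes macrophage elastase, a secreted protease that degrades elastin. It was 40.1 to 272 CPM in fl/fl (median 69.8) and 163 to 406 CPM in iADKO (median 253). Again fl/fl replicates 5 and 7 reached into the iADKO range, and the other 5 fl/fl libraries stayed at or below 103 CPM. The log2 fold change was 1.22 with a standard error of 0.42 (adjusted p = 0.0456, edgeR), and the call held in 3 of the 13 fits that left out 1 mouse.

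*Itgax* (ENSMUSG00000030789; chr7:127728668-127749829, + strand, 30 exons) encodes CD11c, the alpha X integrin that pairs with the beta 2 subunit. The fl/fl libraries had 24.8 to 114 CPM (median 35.0) and the iADKO libraries 60.2 to 114 CPM (median 106). No iADKO library lay above fl/fl replicate 5, and the 5 lowest fl/fl libraries were at or below 36.6 CPM. The log2 fold change was 1.01 with a standard error of 0.35 (adjusted p = 0.0429, edgeR), held in 3 of the 13 fits that left out 1 mouse. Among 6 beta 2 integrins and ligands, of which 5 were tested, 2 were higher and none lower, with a median log2 fold change of 0.44. *Itgb2*, the beta 2 partner of CD11c, rose from 113 ± 64.8 to 222 ± 45.1 CPM (log2 fold change 0.97, adjusted p = 0.0292, edgeR), and *Icam1*, a ligand of these integrins, rose by 0.38 (adjusted p = 0.038, edgeR). These calls depended on single mice, with 4 genes of the list passing without fl/fl replicate 5, 3 without iADKO replicate 6, 2 without fl/fl replicate 7, 1 without iADKO replicate 1 or 5, and 0 without any other. None passed with the series as a block (adjusted p = 0.122 for *Itgb2* and 0.0594 for *Icam1*, edgeR) or with no filter on low counts.

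*Tm4sf19* (ENSMUSG00000079625; chr16:32219324-32228057, + strand, 5 exons) encodes a 4-pass membrane protein expressed in osteoclasts and multinucleated macrophages. It was rare, at 0.462 to 2.38 CPM in fl/fl (median 0.92) and 4.42 to 8.90 CPM in iADKO (median 6.30), or 8 to 185 counts per library. The genotypes did not overlap, and the lowest iADKO library, replicate 6, was above fl/fl replicate 5. The gene was 5.19-fold higher in iADKO (log2 fold change 2.38, standard error 0.31, adjusted p = 0.000317, edgeR), with an exact permutation p of 0.00117. It passed in all 13 fits that left out 1 mouse, at log2 fold changes of 2.24 to 2.63. *Tm4sf19* shares 519 exon bases on the same strand with the processed pseudogene *Gm20056*, which held 697 counts over the 13 libraries against 965 for *Tm4sf19*, so the split of reads between them is uncertain. *Gm20056* was 1.24 ± 0.621 CPM in fl/fl and 4.28 ± 1.97 CPM in iADKO (log2 fold change 1.78, adjusted p = 0.00334, edgeR). Summed, the pair had 1.23 to 4.76 CPM in fl/fl and 6.24 to 16.0 CPM in iADKO, without overlap.

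*Dcstamp* (ENSMUSG00000022303; chr15:39609214-39624334, + strand, 4 exons) encodes a membrane protein required for the fusion of macrophages and osteoclast precursors. It was also rare, at 0.430 to 2.68 CPM in fl/fl (median 0.823) and 2.20 to 4.52 CPM in iADKO (median 3.14), or 8 to 94 counts per library. Only fl/fl replicate 5 reached the iADKO range, and 4 iADKO libraries lay above it. The log2 fold change was 1.62 with a standard error of 0.37 (adjusted p = 0.00588, edgeR), and the gene passed in all 13 fits that left out 1 mouse.

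*Atp6v0d2* (ENSMUSG00000028238; chr4:19876838-19922614, - strand, 8 exons) encodes the d2 subunit of the vacuolar proton pump, found mainly in osteoclasts, macrophages and a few other cell types, and likewise takes part in cell fusion. Its levels were 16.2 to 90.3 CPM in fl/fl (median 27.9) and 46.8 to 101 CPM in iADKO (median 89.3). Only fl/fl replicate 5 and replicate 7 (55.7 CPM) were above the lowest iADKO library, replicate 6. The log2 fold change was 1.13 with a standard error of 0.37 (adjusted p = 0.0343, edgeR), held in 3 of the 13 fits that left out 1 mouse. *Atp6v0d1*, its broadly expressed paralogue, was 118 ± 9.45 CPM in fl/fl and 107 ± 4.10 CPM in iADKO (log2 fold change -0.14, adjusted p = 0.0589, edgeR). Of 17 other subunits and accessory proteins of the pump, *Atp6v0d1* included, 7 were higher and 2 lower, with a median log2 fold change of 0.03. *Tcirg1*, the a3 subunit of lysosomes and osteoclasts, rose by a log2 fold change of 0.69 (adjusted p = 0.0132, edgeR). *Atp6v1b2* rose by 0.51 without overlap of the genotypes (adjusted p = 0.000408, edgeR) and *Atp6ap2*, an accessory protein, by 0.37 (adjusted p = 0.00528, edgeR). With the series as a block 2 subunits passed, both higher, *Atp6v1b2* (adjusted p = 0.0189, edgeR) and *Atp6ap2* (adjusted p = 0.0498, edgeR). When 1 mouse was left out 6 to 12 of the 17 passed in either direction, with 12 in the fit without fl/fl replicate 5.

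In a list of 12 other osteoclast and cell fusion genes, 9 were tested, of which 5 were higher and 1 lower (median log2 fold change 0.47). *Ocstamp*, the fusion protein related to DC-STAMP, had 0.332 ± 0.154 CPM in fl/fl and 1.10 ± 0.422 CPM in iADKO without overlap (log2 fold change 1.71, adjusted p = 0.00225, edgeR). *Tnfrsf11a*, which encodes the receptor RANK, rose by 0.81 (adjusted p = 0.0023, edgeR) and the transcription factor *Tfec* by 0.64 (adjusted p = 0.0179, edgeR). *Acp5*, the tartrate-resistant acid phosphatase that marks osteoclasts, fell by 0.37 (adjusted p = 0.0251, edgeR). *Calcr*, *Oscar* and *Siglec15* were too low to test. With the series as a block 2 genes passed, both higher, *Ocstamp* (adjusted p = 0.0154, edgeR) and *Tnfrsf11a* (adjusted p = 0.0256, edgeR). *Tfec* then had an adjusted p of 0.0587 and *Acp5* one of 0.19, and *Acp5* was also lost with the replicate number as a block (adjusted p = 0.0708, edgeR). When 1 mouse was left out 5 to 8 genes of the list passed in either direction, with 8 in the fit without fl/fl replicate 5.

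Of 16 further genes of the lipid-associated program, 9 were higher and none lower, with a median log2 fold change of 0.49. *Il1rn*, the interleukin-1 receptor antagonist, rose from 5.85 ± 5.41 to 22.0 ± 7.43 CPM (log2 fold change 1.90, adjusted p = 0.012, edgeR). *Slc37a2*, a sugar phosphate transporter of macrophages, rose by 1.28 (adjusted p = 0.0028, edgeR) and *Nceh1*, a cholesteryl ester hydrolase, by 0.98 (adjusted p = 0.012, edgeR). The lysosomal proteases *Ctsb* and *Ctsd*, which most cells use, did not pass (log2 fold changes of 0.20 and 0.06, adjusted p = 0.131 and 0.66, edgeR). With the series as a block 2 of the 16 passed, *Slc37a2* among them (adjusted p = 0.0326, edgeR), whereas *Il1rn* (0.055) and *Nceh1* (0.0583) were just above the threshold. When 1 mouse was left out 8 to 12 passed.

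**Figure D2:**
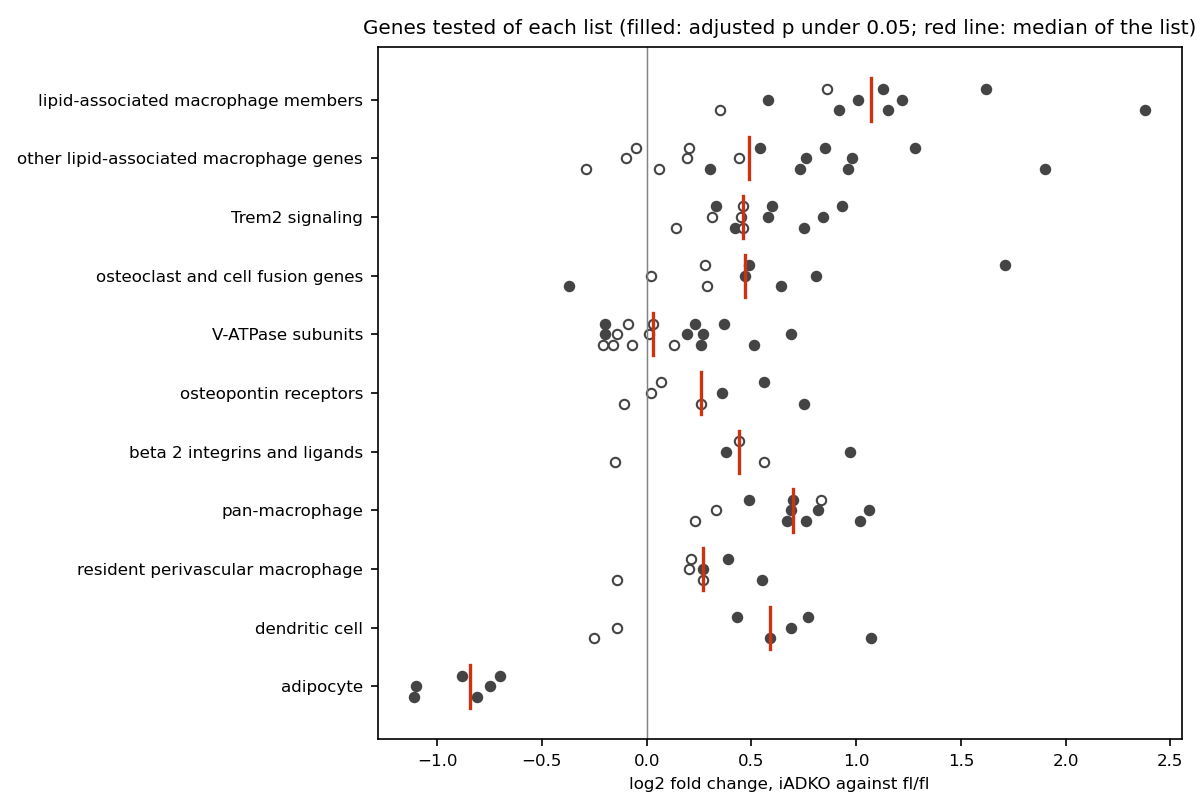
Log2 fold change of iADKO against fl/fl for each tested gene of 11 lists, with filled points at an adjusted p under 0.05 (edgeR) and a red line at the median of each list. The 10 members have a median of 1.07, the pan-macrophage markers 0.70 and the adipocyte markers -0.84.

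Levels can be compared between genes only per length of exon, here the union of the exons of all annotated transcripts. This union was 4946 bases for *Trem2* (5 exons in the canonical transcript) and 4854 bases for *Itgax* (30 exons). It can exceed the length of the RNA present by an amount that differs between genes, so the order given is approximate. By mean CPM per kilobase in iADKO, *Lgals3* was the highest of the 10 genes (177 ± 35.2), followed by *Gpnmb* (106 ± 27.9) and *Cd9* (60.2 ± 2.61). *Mmp12* (37.4 ± 11.5) and *Atp6v0d2* (30.9 ± 7.21) came next and lay within their SDs of each other, as did *Itgax* (20.2 ± 4.15) and *Trem2* (18.7 ± 4.57). *Spp1* had 11.6 ± 4.07, *Tm4sf19* 3.22 ± 0.866 and *Dcstamp* 1.08 ± 0.297 CPM per kilobase. In fl/fl the order was the same except that *Trem2* (10.3 ± 5.88) stood just before *Itgax* (9.99 ± 6.66), a difference far within the spread. *Lgals3* (79.7 ± 24.3), *Gpnmb* (55.9 ± 28.7) and *Cd9* (40.3 ± 12.4) led there too. The 5 genes from *Mmp12* (16.0 ± 12.0) down to *Spp1* (9.11 ± 10.8) did not differ beyond their spread in fl/fl.

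The 2 rare fusion-related genes, *Tm4sf19* and *Dcstamp*, had the largest fold changes of the 10. Relative to the mean, the spread between mice was wider in fl/fl than in iADKO for every one of the 10 genes. Coefficients of variation were 30.5% to 118% in fl/fl and 4.33% to 35.0% in iADKO. The SD in CPM was larger in iADKO for *Lgals3* (81.2 against 56.1), *Tm4sf19* (1.73 against 0.71) and *Dcstamp* (0.879 against 0.801), and larger in fl/fl for the others. The difference in spread was not tested. Replicate 5 held the highest fl/fl value for 9 of these genes and replicate 7 that of *Spp1*. The fl/fl spread was not computed without these libraries, so its direction without them is not given. In fl/fl the highest library was 2.08 to 15.5 times the lowest, and in iADKO 1.12 to 3.78 times.

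The members rose and fell together from mouse to mouse within a genotype. With the mean of each genotype subtracted, the 45 pairs of members had a median Pearson correlation of 0.89 over 13 libraries (0.699 to 0.985), and the points share library and depth. The 3 libraries that stood apart carry much of this. Without them the median over 10 libraries was 0.63 and the range -0.26 to 0.89. Mean log2 CPM over the 10 genes was 6.15 in fl/fl replicate 5 and 5.76 in replicate 7, against 4.02 to 4.71 in the other 5 fl/fl libraries. It was 5.55 in iADKO replicate 6 and 6.11 to 6.52 in the other 5.

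The number of members called depended on single mice. Without fl/fl replicate 5, 9 of the 10 passed, with *Trem2* added, and the same number passed without iADKO replicate 6. Without fl/fl replicate 7, 8 passed. Leaving out fl/fl replicate 1, 2, 3, 4 or 6 or iADKO replicate 2, 3, 4 or 5 left 4 members past the threshold, and leaving out iADKO replicate 1 left 5. The share of all genes called higher moved alongside, to 19.9% without fl/fl replicate 5, 15.9% without iADKO replicate 6, 14.5% without fl/fl replicate 7 and 10.6% to 12.3% without any other mouse. *Lgals3*, *Tm4sf19*, *Cd9* and *Dcstamp* passed in all 13 of these fits. *Mmp12*, *Itgax* and *Atp6v0d2* kept their call in the fits without fl/fl replicate 5, fl/fl replicate 7 or iADKO replicate 6, and *Gpnmb* also in the fit without iADKO replicate 1. In the remaining fits their adjusted p rose to at most 0.0952, 0.081, 0.0673 and 0.0736, in that order (edgeR), with every log2 fold change at or above 0.81.

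The library names carry animal numbers, which were grouped here into 4 series, called A to D. This grouping was a choice and is not named by the labels. The iADKO replicate 1, placed in series C, is numbered as far from the rest of C as A is from B. The results by series rest on this grouping, and no other was tried. Series A held fl/fl mice only and series D iADKO mice only, so within these the series and the genotype cannot be told apart. Within series C (3 fl/fl and 2 iADKO mice) all 10 members were higher in iADKO, with a median difference in mean log2 CPM of 1.84 (0.82 to 2.82). The share of all genes that were higher within a series was not computed. Within series B (2 and 2 mice, with 2 of the mice that stood apart, fl/fl replicate 5 and iADKO replicate 6) the members' median difference was 0.60 (0.00 to 1.99), with *Trem2* at 0.13, *Spp1* at 0.00, *Lgals3* at 0.96 and *Tm4sf19* at 1.99. With the series as a block in edgeR, 2 of the 10 members passed, *Lgals3* (adjusted p = 0.0216) and *Tm4sf19* (adjusted p = 0.0147), where 4.68% of all genes tested were higher. With the replicate number as a block, and fl/fl replicate 7 left out because it has no partner, 9 passed against 14.3% of all genes. *Trem2* was then among them (log2 fold change 1.09, adjusted p = 0.0462, edgeR).

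Most markers of macrophages in general were also called higher, with the calls mostly lost under the series block. Of 11 pan-macrophage markers 8 were higher and none lower (median log2 fold change 0.70), and their summed level was 1422 to 3389 CPM in fl/fl and 2126 to 3789 CPM in iADKO. With the series as a block 1 of the 11 passed, and 7 to 9 did when 1 mouse was left out. *Mpeg1*, which encodes the pore-forming protein perforin-2, had 417 ± 284 CPM in fl/fl and 744 ± 140 CPM in iADKO (adjusted p = 0.0777, edgeR). *Csf1r*, the receptor for the macrophage growth factor CSF1, rose from 389 ± 104 to 547 ± 97.0 CPM (log2 fold change 0.49, adjusted p = 0.0331, edgeR). Their mean log2 CPM was 6.24 to 7.33 in fl/fl (median 6.43) and 6.76 to 7.58 in iADKO (median 7.35), with the highest fl/fl value in replicate 5 and the lowest iADKO value in replicate 6. Within genotypes, the members followed this mean with Pearson correlations of 0.78 (*Dcstamp*) to 0.95 (*Trem2*) over the 13 libraries. The libraries that stood apart, fl/fl replicates 5 and 7 and iADKO replicate 6, are among these, and the correlations were not computed without them.

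Taken as a log2 ratio to the pan-macrophage mean, *Tm4sf19* was the 1 member of 10 without overlap, at -6.31 ± 0.41 (SD, n = 7) in fl/fl and -4.63 ± 0.28 (SD, n = 6) in iADKO, a difference of 1.68. Over all genes tested 0.149% had such a ratio, higher and without overlap. The differences of the ratio were 1.00 for *Dcstamp*, 0.73 for *Mmp12*, 0.58 for *Atp6v0d2*, 0.45 for *Itgax*, 0.43 for *Lgals3*, 0.29 for *Spp1*, 0.28 for *Gpnmb*, 0.24 for *Trem2* and -0.12 for *Cd9*, all with overlap. With the pan-macrophage mean as a covariate, *Tm4sf19* was the 1 member of 10 that passed (log2 fold change 1.44, standard error 0.25, adjusted p = 0.0145, edgeR), where 0.794% of all genes tested were higher. In that fit *Lgals3* differed by 0.53 on the log2 scale (adjusted p = 0.0801, edgeR) and *Trem2* one of -0.22 (adjusted p = 0.476, edgeR). The covariate differs between the genotypes itself, so this fit cannot tell the genotype apart from the macrophage content.

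Libraries of nearly equal pan-macrophage mean, chosen after the values were seen, can be set side by side. They are fl/fl replicate 5 (7.33) and iADKO replicates 1, 3 and 5 (7.34 to 7.35). The fl/fl library was below all 3 iADKO libraries in 2 members, *Lgals3* (268 against 361 to 520 CPM) and *Tm4sf19* (2.38 against 4.97 to 8.90 CPM). It was above all 3 in *Trem2* (108 against 92.0 to 98.5 CPM), in *Spp1* (59.7 against 37.6 to 47.0 CPM) and, by less than the rounding, in *Itgax* (114 against 91.5 to 114 CPM). In the other 5 members it lay within their range. With 1 fl/fl library this has no replicate check.

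**Figure D3:**
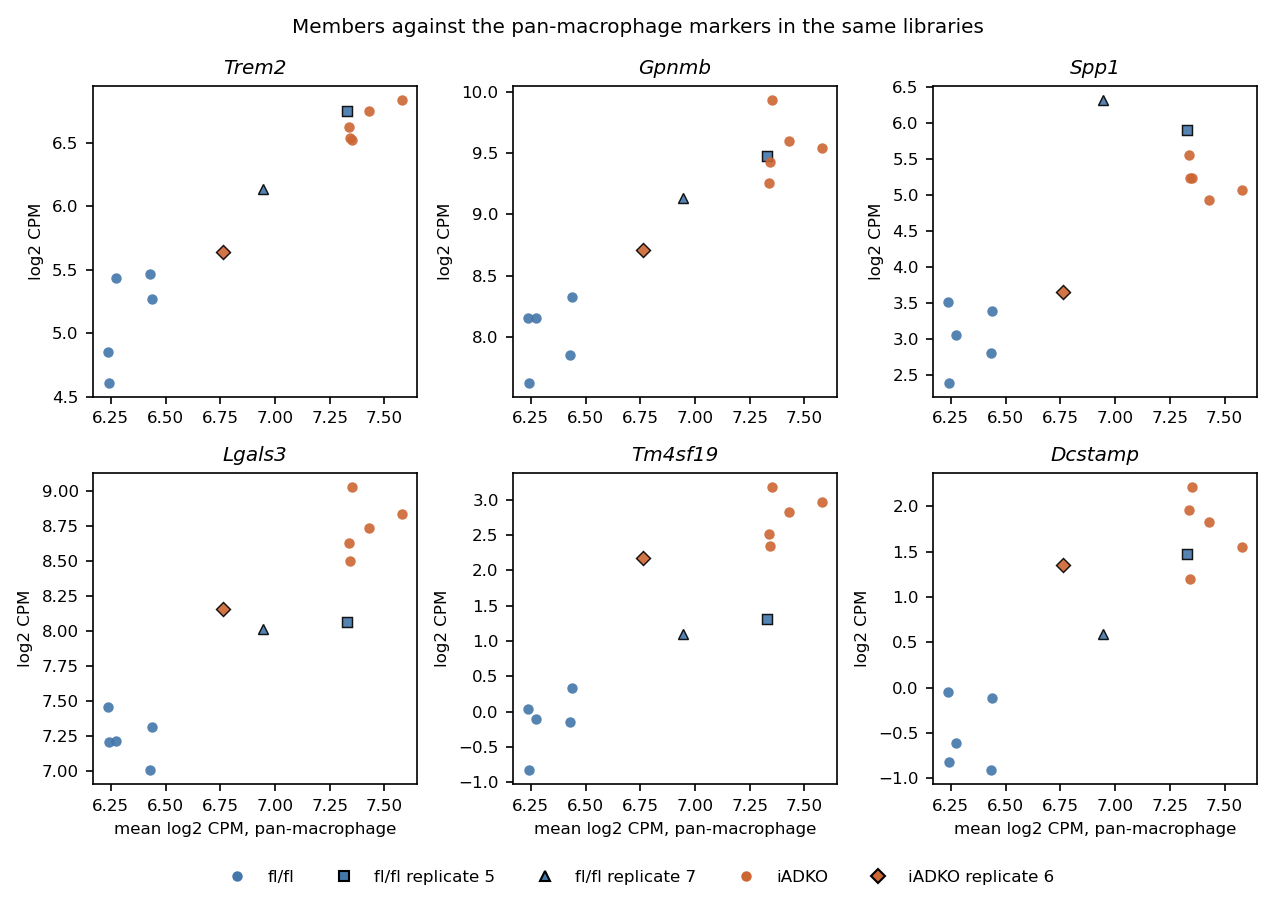
Log2 CPM of 6 members (y axes) against the mean log2 CPM of 11 pan-macrophage markers (x axes) in the same 13 libraries, with the symbols of the plot by library. For *Trem2* the fl/fl and iADKO libraries lie along 1 band, whereas for *Tm4sf19* fl/fl replicate 5 lies below the iADKO libraries of like macrophage mean.

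**Figure D4:**
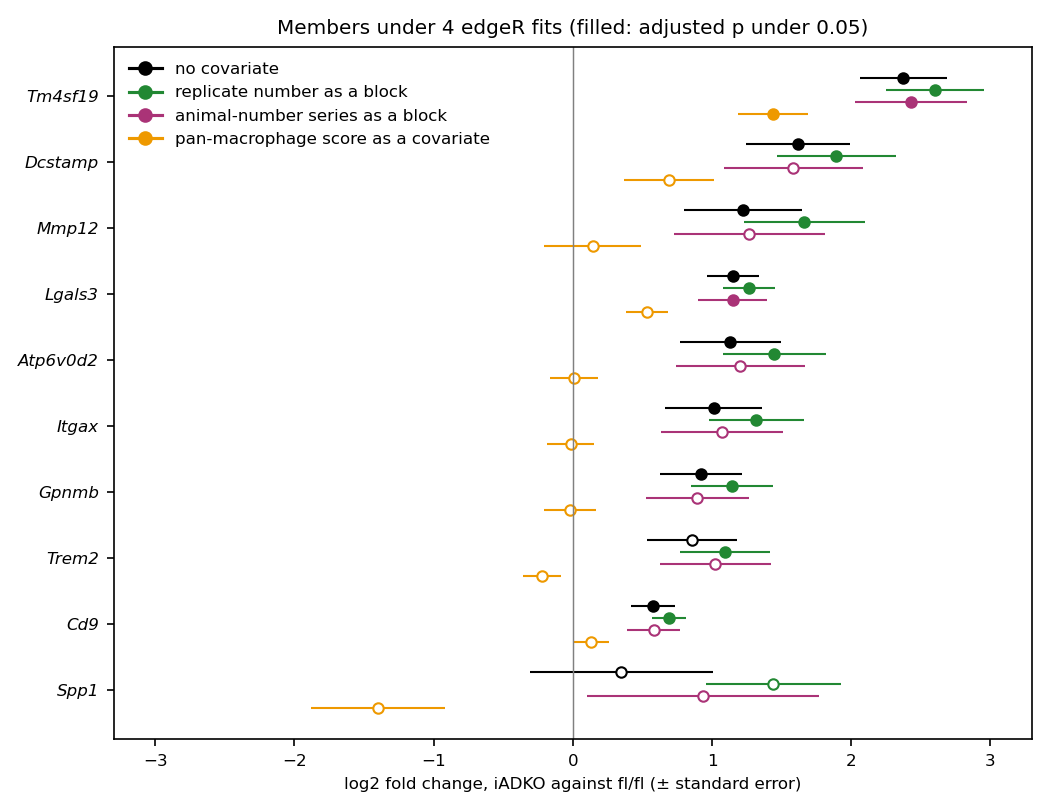
Log2 fold change and standard error of each member under 4 edgeR fits, with filled points at an adjusted p under 0.05. *Tm4sf19* is filled in all 4 fits and *Spp1* in none, and with the pan-macrophage covariate *Trem2*, *Gpnmb*, *Itgax* and *Spp1* lie at -0.22, -0.02, -0.01 and -1.40.

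Markers of other cell types are given for comparison, beside the 14.1% of all genes that were higher and the 2737 of 16753 that were lower. All 6 adipocyte markers were lower (median log2 fold change -0.84), among them *Cidec*, a lipid droplet protein gene, from 2330 ± 473 to 1082 ± 211 CPM, and *Adipoq*, the adiponectin gene whose promoter drives the Cre, from 2139 ± 295 to 1276 ± 263 CPM. With the series as a block 5 of the 6 were still lower. Of 7 markers of resident perivascular macrophages 3 were higher (median 0.27), with *F13a1* and *Mrc1* having the most counts. The largest of these changes was in *Folr2*, the folate receptor gene (log2 fold change 0.55, adjusted p = 0.00274, edgeR). Of 7 dendritic cell markers, which bear on *Itgax*, 5 were higher (median 0.59). Their summed level was 52.9 to 79.0 CPM in fl/fl and 61.9 to 69.0 CPM in iADKO, so the genotypes overlapped. Markers were higher for monocytes in 3 of 4, T cells in 3 of 6, B cells in 2 of 4, mast cells in 2 of 4, NK cells in 1 of 4 and neutrophils in 1 of 5, and none of these was lower. These are few genes a list, and the counts with the series as a block were 2 for monocytes and mast cells, 1 each for T, B and NK cells, 0 for neutrophils and perivascular macrophages and 3 for dendritic cells. No B cell marker passed without fl/fl replicate 1, 2, 3, 4 or 6 or iADKO replicate 2, 4 or 5. Of 5 endothelial markers 3 were lower (median -0.21). None of 5 progenitor, 5 mesothelial and 4 skeletal muscle markers passed (3 of the muscle markers were lower with the series as a block), 1 of the 3 epithelial markers tested was higher, and 4 of 5 proliferation genes were higher (median 0.51). The part of these cells in the member results was not tested.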

How the data were processed

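Bulk RNA-Seq of pmWAT was analyzed for 7 fl/fl and 6 iADKO mice, and groups and replicate numbers came from the sample labels. The authors deposited raw counts per Ensembl gene, and log2 values made from them by the regularized log of DESeq2. Per the submitters' processing notes and the study's methods, strand-specific mRNA libraries were checked with FastQC 0.12.1 and aligned to mm39 with STAR 2.7.11a. The counting tool, its strand setting and the annotation are not given in the sources used here. Antisense genes overlap exons of several members, so reads from the other strand cannot be told apart if strand was not used.

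In R 4.3.3, counts were filtered by filterByExpr, TMM-normalized and tested with edgeR 4.0.16 (robust quasi-likelihood, no covariate), with Benjamini-Hochberg adjustment over 16753 genes and a threshold of 0.05. Standard errors came from the log2 fold change and its F statistic. TMM-normalized CPM are printed, and a prior count of 2 entered their log2 values. Single genes were also compared by exact two-sided permutation over all splits of 13 libraries. TMM factors were 0.892 to 1.02 in fl/fl and 1.05 to 1.10 in iADKO. Of the identifiers, 33184 matched GENCODE M39, from which exon lengths and GRCm39 coordinates were taken. Each SD is between mice and so contains the counting error. Mice of 1 genotype differed by more than counting error (chi-square per degree of freedom 8.16 to 88.8). The tests were checked on simulated counts.

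The members and lists were chosen with earlier results of these data known. The text names all members, the called genes (at most 3) with the largest absolute change in each of the 6 gene lists, *Tyrobp*, *Atp6v0d1*, *Itgb2* and *Cd44*, the 2 most counted markers of macrophages, perivascular macrophages and adipocytes (the other marker lists are given by counts), and the 8 genes most like the members, and *Apoe*, *Clu*, *Itgb1*, *Ctsb*, *Ctsd*, *Acp5*, *Gm20056* and *Folr2* were added with their values known. Alternatives were DESeq2 1.42.0 (size factors, and its Wald test), no filter on low counts, blocks for replicate number and animal-number series, a pan-macrophage covariate, limma 3.58.1 on the deposited log2 values, and leaving out each mouse.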

Additional observations from a re-analysis of the deposited data

Results flagged for a closer look

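Within each genotype, the lowest and highest library of every member and of every list mean were compared with the others by Dixon's test at its 95% limit. It marked 10 of 64 groups, where chance alone marks about 1 in 20. In 9 of the 10, iADKO replicate 6 was the lowest iADKO library. It had a log2 CPM of 5.64 for *Trem2*, 3.65 for *Spp1*, 5.91 for *Itgax* and 5.55 for *Atp6v0d2*. Its mean log2 CPM was 5.95 for the TREM2 signaling genes, 4.26 for the osteoclast and cell fusion genes, 6.43 for the osteopontin receptors, 5.16 for the beta 2 integrins and ligands, and 6.76 for the pan-macrophage markers. The next lowest iADKO library had 7.34 for the last of these. These lists share a library and are not separate evidence. The 1 other group was the NK cell markers, for which iADKO replicate 1 was lowest at a mean log2 CPM of 0.71. No fl/fl library was marked, although replicates 5 and 7 were high together in most members.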

How the results depend on the processing

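Of the 10 members, 8 passed by edgeR with DESeq2's size factors and 9 by DESeq2's Wald test, by limma on the deposited log2 values and with the replicate block, which brought in *Trem2* and changed no other member's call. The count was 4 with no filter on low counts, 2 with the animal-number series as a block and 1 with the pan-macrophage covariate, and 4 to 9 when 1 mouse was left out. Of 22 gene and marker lists other than the members, the number of genes called moved by over 1.5 times in 16 with the series block and 19 with the covariate, and no gene of the 6 gene lists was higher with the covariate. Over all genes, 5104 passed, 1986 with the series block and 319 with the covariate. With the covariate the direction turned for *Trem2* (-0.22), *Gpnmb* (-0.02), *Spp1* (-1.40) and *Itgax* (-0.01). The causes were not tested. Same-numbered mice did not clearly pair by the data. Their deviations correlated by 0.107 on average (-0.0265 to 0.217, over 0.1 in 3 of 6 pairs), against -0.0248 for the other pairs. Of the 6 iADKO mice, 2 matched their own number best, and whether the numbers mark pairs was not tested. Counts of 8 to 185 per library limit the precision of *Tm4sf19*, and 8 to 94 that of *Dcstamp*.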

Other observations

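The genes whose levels followed the members most closely from mouse to mouse were sought among 13678 other genes, by the correlation of genotype-centred log2 CPM with the mean of the 10 members over 13 libraries. This is a description in which the 3 libraries that stood apart weigh heavily. The 8 closest were *Atf3* (0.983), *Itgb2* (0.982), *Cd200r1* (0.979), *Cd300lb* (0.978), *Arhgap25* (0.974), *Clec4d* (0.973), *Cd84* (0.972) and *Plek* (0.972). *Atf3*, a stress-induced transcription factor, rose from 16.9 ± 8.56 to 45.9 ± 10.4 CPM (log2 fold change 1.44, adjusted p = 0.00316, edgeR). *Cd200r1*, *Cd300lb*, *Arhgap25* and *Cd84*, which encode proteins of immune cells, rose by log2 fold changes of 1.02, 1.07, 1.14 and 0.95, all past the threshold. *Clec4d*, a C-type lectin receptor gene, and *Plek*, the pleckstrin gene, both had a log2 fold change of 0.71 and did not pass (adjusted p = 0.287 and 0.075, edgeR).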
